A study of Saccharomyces cerevisiae with 12 samples.

Results

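The comparison set 3 RNA-seq libraries of H2AZ_4KR yeast against 3 libraries of WT_H2AZ yeast, which are 6 of the 12 libraries of the series, and covered all 7127 genes of their count table. The libraries were taken by their labelled genotype, not by any measured value. H2AZ_4KR is named for 4 lysines (K) changed to arginine (R) in H2A.Z, a histone variant, and WT_H2AZ has the wild-type form. Both groups were Saccharomyces cerevisiae BY4741, a haploid laboratory strain of the S288C background. They were grown without treatment to mid-log phase in YPD, a rich medium with glucose. The labels do not say which lysines were replaced, whether the altered gene sat at its own locus or on a plasmid, which promoter drove it, or whether the strain was a single clone. They also do not say whether replicates were separate cultures, so the p-values measure only the spread between these samples, which may be technical. The question was which RNAs differ in level between the strains.

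H2A.Z, encoded by HTZ1 in yeast, takes the place of H2A in nucleosomes that flank promoters, where the SWR1 complex deposits it. Lysines in its N-terminal tail are acetylated by NuA4 and other acetyltransferases, and arginine keeps the positive charge of lysine but cannot be acetylated. In yeast, H2A.Z is known for its part in the induction of repressed genes, among them glucose-repressed and galactose genes, and for keeping silent chromatin at chromosome ends from spreading.

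Short promoter stretches from genes at the centre of the results are shown first. Each is 30 bases around a motif match in the 500 bases before the start codon, written 5′ to 3′ on the gene's strand from the R64 genome (the assembly behind sacCer3), with the match in capitals. The first set holds the Mig1-type GC box GTGGGG (or its complement CCCCAC), the core of the element bound by the glucose repressor Mig1. It is shown in 7 genes of sugar use, storage and carbon regulation, chosen among genes that were lower in H2AZ_4KR. The box also lay in 13 promoters of higher genes.
SUC2, chrIX:36968-36997, plus strand: agcgttaatcgaCCCCACgtccagggtttt
HXT2, chrXIII:287906-287935, plus strand: aaacctagcaacCCCCACcaaacttgtcat
HXT4, chrVIII:289044-289073, minus strand: aagtttatgaagGTGGGGtggtaagaaaag
REG2, chrII:338506-338535, minus strand: ggataaaaaaacGTGGGGggagtgattaaa
CAT8, chrXIII:831527-831556, minus strand: ggctgatattttGTGGGGtacgaaagcatg
GLC3, chrV:132870-132899, plus strand: ccccgcgttctcGTGGGGgccaaataagct
HXK1, chrVI:255520-255549, minus strand: gcccctgaaCCCCACtattctgcccctttg

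The second set holds CCGGNNCCGG, the element bound by Leu3, the activator of leucine genes. LEU1, BAT1 and BAP2 were lower in H2AZ_4KR. GDH1 (log2 fold change -0.58), ILV5 (-0.45) and ILV2 (-0.19) carry the same element and were not called, though all lay below 0. GDH1 and ILV5 missed only the 1.5-fold limit set for a call.
LEU1, chrVII:478850-478879, minus strand: aacgaaaattCCGGGACCGGcgaaatttgc
BAT1, chrVIII:517375-517404, plus strand: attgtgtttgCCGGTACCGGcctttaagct
BAP2, chrII:376057-376086, minus strand: ttttgtgggaCCGGAACCGGcatccacatt
GDH1, chrXV:1043427-1043456, minus strand: aaccaatgcgCCGGAACCGGcccatgcatt
ILV5, chrXII:839611-839640, minus strand: gcggtctcctCCGGTACCGGttctgccacc
ILV2, chrXIII:483606-483635, plus strand: ccggagcctgCCGGTACCGGcttggcttca

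The third set comes from 2 genes of the start of the cell cycle that were higher in H2AZ_4KR. RNR1 holds 4 copies of ACGCGT, bound by the factor MBF, of which the copy nearest the start codon is shown. PCL1 holds a pair of CGCGAAA elements, bound by SBF, on opposite strands.
RNR1, chrV:298632-298661, plus strand: gttgaatagaggACGCGTaaaaacgatatg
PCL1, chrXIV:87587-87616, plus strand: cgtccggCGCGAAAttTTTCGCGgaggcat

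The libraries held 17253140 to 19235586 counted fragments in H2AZ_4KR and 17454204 to 18957785 in WT_H2AZ. Levels are given as CPM, the fragments of a gene per 1000000 counted fragments of its library. Of 7127 genes, 6106 had enough fragments to be tested. The first principal component of log2 CPM held 56.6% of the variance and put the groups at opposite ends. BY4741 is a MATa strain: STE2, the alpha-factor receptor of MATa cells, had 11367 to 15975 fragments per library, and STE3, the receptor of MATalpha cells, had 17 to 48. Other alpha-specific genes varied: MF(ALPHA)1 had 1 to 15 fragments per library, MF(ALPHA)2 had 103 to 140 and SAG1 had 787 to 1216.

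HTZ1 itself stood at 344, 359 and 459 CPM in H2AZ_4KR, against 98.9, 95.5 and 93.2 CPM in WT_H2AZ. All 3 H2AZ_4KR libraries lay well above the narrow WT_H2AZ range. The log2 fold change was 2.15 ± 0.127 (standard error), with adjusted p = 1.10e-05 (edgeR's quasi-likelihood test with Benjamini-Hochberg adjustment over all genes tested, as for every adjusted p here). LEU2, the leucine synthesis gene deleted in BY4741 and a common plasmid and integration marker, had 2839, 2022 and 2613 fragments in H2AZ_4KR, against 0, 0 and 0 in WT_H2AZ. With WT_H2AZ set at its floor of 3 fragments per library, LEU2 was at least 804-fold higher in H2AZ_4KR. The other marker genes of the background did not separate the groups: MET17 had no fragment in any library, URA3 had at most 2, and HIS3 had 2232 to 2965 in H2AZ_4KR and 2373 to 3340 in WT_H2AZ. The substitution, the higher HTZ1 RNA and the presence of LEU2 go together in the same 3 libraries, so their parts in any change reported here cannot be told apart.

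Genes beside HTZ1 and LEU2 were examined next. Of 5 annotated genes on each side of HTZ1 on chromosome XV, 7 were tested and CSI2, a gene linked to chitin synthesis, was the sole one called, at 85.6, 62.9 and 70.2 CPM in H2AZ_4KR against 56.0, 49.0 and 47.1 CPM in WT_H2AZ (log2 fold change 0.67, adjusted p = 0.00661). That call was lost without H2AZ_4KR replicate 1 and under scaling by total counts. HRD1, a ubiquitin ligase of the endoplasmic reticulum next to HTZ1, was at 123, 106 and 97.4 CPM in H2AZ_4KR against 179, 160 and 149 CPM in WT_H2AZ, and its log2 fold change of -0.44 did not pass the 1.5-fold limit. Beside LEU2 on chromosome III lies the leucine tRNA gene tL(CAA)C, too low to be tested, with 22, 17 and 7 fragments in H2AZ_4KR and 0, 0 and 0 in WT_H2AZ. NFS1, the cysteine desulfurase gene on the other side of LEU2, was not called (log2 fold change -0.21). Farther out, YCL021W-A was higher (1.37, adjusted p = 0.000765) and YCL012C lower (-0.75, adjusted p = 0.00832).

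A gene was called changed at an adjusted p below 0.05 with a fold change over 1.5, the limits that the series states. Of the genes tested, 292 (4.78%) were higher and 447 (7.32%) lower in H2AZ_4KR, so that 12.1% changed. More genes were lower, and their changes were larger: 190 lower and 49 higher genes passed 2-fold, and the median log2 fold change was -0.90 among lower and 0.75 among higher genes. Of the 292 higher genes, 145 lay in the most abundant of 5 equal level classes and 58 in the least abundant. Together the higher genes took 180758 CPM in H2AZ_4KR and 119516 CPM in WT_H2AZ, while the lower genes took 45072 CPM in H2AZ_4KR and 97600 CPM in WT_H2AZ. Fold changes are relative to TMM factors, which put the median of all genes at -0.007. Under scaling by total counts that median was -0.149, and the calls were 138 higher and 671 lower. The groups did not overlap in 706 of the 739 changed genes and in 44.4% of all genes tested.

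**Figure D1:**
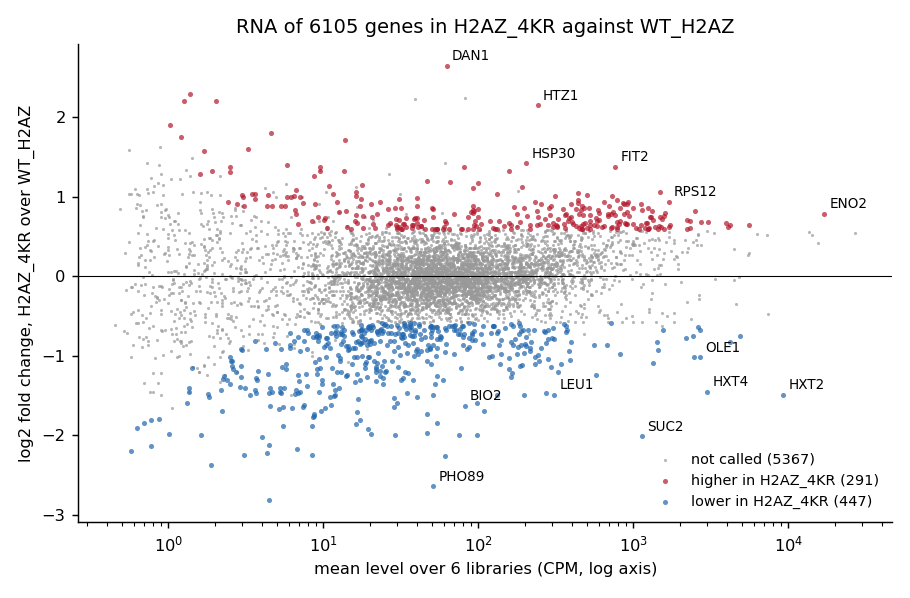
Mean level over the 6 libraries (x axis, CPM, log scale) against log2 fold change of H2AZ_4KR over WT_H2AZ (y axis) for each tested gene except LEU2; red points are called higher, blue points lower, grey points not called. Higher genes are most frequent at high levels and lower genes at low levels, though both occur throughout. DAN1 and HTZ1 are at the top and PHO89 and SUC2 among the lowest named.

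Genes for the uptake of hexoses were lower almost throughout. Yeast imports glucose through the HXT carriers, whose genes are set by the glucose level of the medium. Of 16 hexose transporter genes tested, 13 were lower (81.2%, against 7.32% of all genes tested) and none higher. All 16 had a log2 fold change below 0 (median -1.09). HXT2, a high-affinity carrier, was at 4402, 5737 and 3383 CPM in H2AZ_4KR against 13915, 14000 and 13981 CPM in WT_H2AZ (log2 fold change -1.49, adjusted p = 0.00179). HXT2 varied among the H2AZ_4KR libraries but scarcely among those of WT_H2AZ, and the groups lay far apart. HXT4 stood at 1617, 1604 and 1259 CPM in H2AZ_4KR and 3792, 4675 and 5034 CPM in WT_H2AZ (-1.45, adjusted p = 0.000654). HXT3, a low-affinity carrier, averaged 1533 ± 194 CPM in H2AZ_4KR and 3397 ± 715 CPM in WT_H2AZ (SD, n = 3 each; log2 fold change -1.01). HXT1, which is induced by high glucose, changed in the same direction as the high-affinity genes, to 203 ± 51.6 CPM in H2AZ_4KR against 477 ± 102 CPM in WT_H2AZ (log2 fold change -1.10, adjusted p = 0.00511). HXT6 and HXT7 were also lower (-0.75 and -0.64), but their sequences are nearly identical and fragments that map to both were dropped, and the call of HXT7 was lost under the gene length offset and when any library but H2AZ_4KR replicate 2 was left out. Summed over the family, transporters took 1.11%, 1.32% and 1% of the fragments in H2AZ_4KR, against 2.71%, 2.95% and 3.02% in WT_H2AZ.

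Genes for sucrose and maltose use were lower as a block. Of 12 tested, 10 were lower (83.3%, against 7.32% of all genes tested), none higher, and all 12 lay below 0 (median -1.10). SUC2, the secreted invertase that splits sucrose and a classic glucose-repressed gene, was at 380, 422 and 442 CPM in H2AZ_4KR against 2016, 1947 and 1580 CPM in WT_H2AZ. Its log2 fold change of -2.01 ± 0.135 (adjusted p = 2.28e-05) kept its call under all 13 alternatives that keep the thresholds. Maltase MAL12 (-1.64), isomaltase IMA1 (-1.59) and isomaltase IMA2 (-1.48) were lower, as were the maltose transporter MAL31 (-0.99) and the maltose activator MAL13 (-0.79). Several of these genes are near copies of each other close to chromosome ends, so fragments shared between copies were dropped and their levels are uncertain. The list's summed level was 741, 865 and 811 CPM in H2AZ_4KR against 2757, 2875 and 2405 CPM in WT_H2AZ, and SUC2 made up most of it.

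Regulators of the response to glucose changed in part. Of 22 glucose signalling genes, REG2, SNF3 and MTH1 were lower (13.6%, against 7.32% of all genes tested) and none was higher. The list's median was -0.09, against -0.007 for all genes. REG2, a regulatory subunit of protein phosphatase type 1, was at 7.02, 7.53 and 8.27 CPM in H2AZ_4KR against 38.7, 34.4 and 26.6 CPM in WT_H2AZ (-1.98), though it overlaps YBR051W and the counts ignore strand. SNF3, the sensor of low glucose, stood at 49.6, 60.7 and 49.8 CPM in H2AZ_4KR against 102, 114 and 105 CPM in WT_H2AZ (-0.86). MTH1, a corepressor of HXT genes, was lower by a similar amount (-0.84). Among 12 activators of genes for non-fermentable carbon, ADR1, SIP4 and CAT8 were lower (25%). The other members, the HAP genes of respiration among them, were not called. ADR1 was at 145, 131 and 125 CPM in H2AZ_4KR against 443, 393 and 392 CPM in WT_H2AZ (-1.47, adjusted p = 4.59e-05), and CAT8 was at 28.3, 35.2 and 31.2 CPM in H2AZ_4KR against 95.0, 88.9 and 74.1 CPM in WT_H2AZ (-1.30). With any single library left out, 3 or 4 genes were lower on the signalling list and 3 among the activators.

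**Figure D2:**
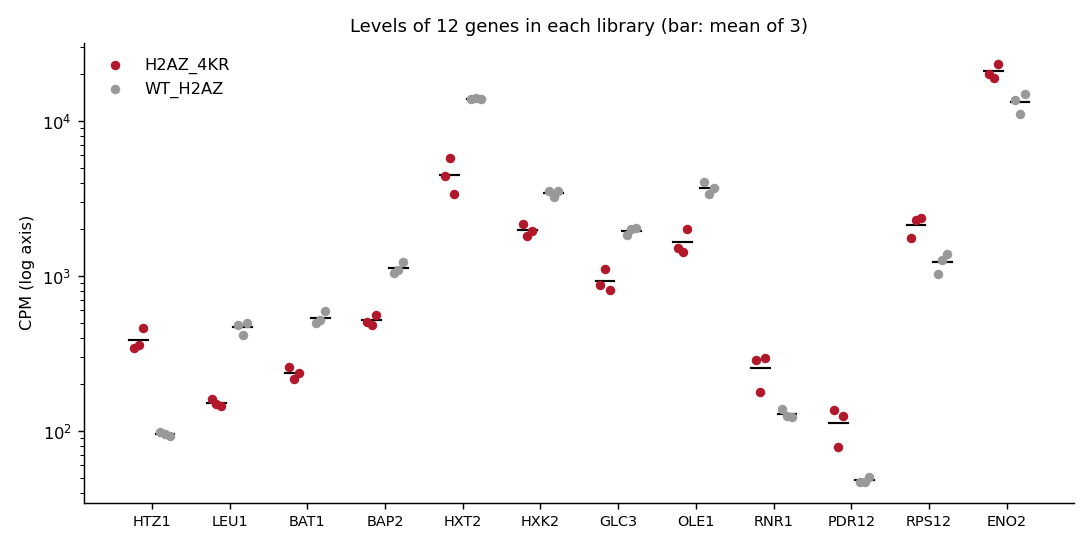
Level of 12 genes (CPM, log axis) in each library; red points are H2AZ_4KR, grey points WT_H2AZ, and black bars the mean of 3. The groups do not overlap for any gene drawn: HTZ1, RNR1, PDR12, RPS12 and ENO2 are higher in H2AZ_4KR, and LEU1, BAT1, BAP2, HXT2, HXK2, GLC3 and OLE1 are lower.

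Storage carbohydrate and glycerol genes were lower wherever they were called. Of 21 trehalose and glycogen genes, 7 were lower (33.3%, against 7.32% of all genes tested), none higher, and 1 had a log2 fold change above 0 (median -0.54). The glycogen branching enzyme GLC3 was at 869, 1115 and 817 CPM in H2AZ_4KR against 1844, 2013 and 2033 CPM in WT_H2AZ (-0.93, adjusted p = 0.00235). Glycogen synthase GSY1 (-0.83), the debranching enzyme GDB1 (-0.83) and the acid trehalase ATH1 (-0.85) were lower, and the trehalose synthases TPS1 (-0.21) and TPS2 (-0.57) were not called. H2AZ_4KR replicate 2 had the highest level of the mutant libraries for GLC3, GSY1 and GDB1. Without it, 12 genes of the list were lower, as they were under scaling by total counts. Of 11 glycerol genes, 5 were lower (45.5%) and none higher (median -0.53). GUT2, the mitochondrial glycerol-3-phosphate dehydrogenase, was at 133, 252 and 127 CPM in H2AZ_4KR against 377, 495 and 373 CPM in WT_H2AZ (-1.14), and GUT1, glycerol kinase, was lower by less (-0.73). Glycerol synthesis genes GPD2 (0.03) and GPP1 (0.48) were not called.

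Genes of glycolysis and fermentation changed in both directions. Of 25 tested, 3 were higher (12%) and 6 lower (24%), against 4.78% and 7.32% of all genes tested. Yet the list's median was 0.29, and its summed share was 14.9%, 13.5% and 16.3% of fragments in H2AZ_4KR against 12.5%, 11.1% and 13.3% in WT_H2AZ. ENO2, the main enolase of growth on glucose, was at 20260, 19014 and 23505 CPM in H2AZ_4KR against 13625, 11153 and 15071 CPM in WT_H2AZ (0.79, adjusted p = 0.0352). ENO2, PGK1 (0.64) and TPI1 (0.62) were the higher genes, and none of the 3 was called without H2AZ_4KR replicate 3, without WT_H2AZ replicate 1 or without WT_H2AZ replicate 2. Under total counts PGK1 and TPI1 lost their calls, which left 1 higher gene. ENO2 was also not called without H2AZ_4KR replicate 1, nor TPI1 without H2AZ_4KR replicate 2 or WT_H2AZ replicate 3. The abundant genes TDH3 (0.55), FBA1 (0.56) and PDC1 (0.52) were not called. The lower genes were the hexokinases and minor isozymes. HXK2, the main hexokinase, which also acts in glucose repression, was at 2168, 1810 and 1942 CPM in H2AZ_4KR against 3545, 3249 and 3538 CPM in WT_H2AZ (-0.67, adjusted p = 0.0113, with no call under the gene length offset). HXK1, a glucose-repressed hexokinase, was lower as well (-0.75), without a call when H2AZ_4KR replicate 3 was left out. Pyruvate kinase PYK2 (-0.85), alcohol dehydrogenases ADH2 (-0.71) and ADH5 (-0.86), and pyruvate decarboxylase PDC6 (-1.06) completed the lower set. ADH2 lost its call without H2AZ_4KR replicate 2, ADH5 without H2AZ_4KR replicate 1, H2AZ_4KR replicate 2 or WT_H2AZ replicate 3, and PDC6 without any library but H2AZ_4KR replicate 2. ALD6, the cytosolic aldehyde dehydrogenase that makes acetate, was at 2311, 3837 and 2295 CPM in H2AZ_4KR against 5717, 6075 and 4819 CPM in WT_H2AZ (-0.83, adjusted p = 0.0193), a call lost without H2AZ_4KR replicate 1, H2AZ_4KR replicate 3 or WT_H2AZ replicate 1.

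Lists of the respiratory chain and the TCA cycle held few calls, all of them lower. Of 27 nuclear genes of the respiratory chain 3 were lower (11.1%, against 7.32% of all genes tested) and none higher, and 7 were lower under scaling by total counts. Summed, these genes took 0.491%, 0.56% and 0.485% of the fragments in H2AZ_4KR against 0.695%, 0.731% and 0.624% in WT_H2AZ, and the groups did not overlap. The 3 genes were SDH2 of succinate dehydrogenase (-0.68), the internal NADH dehydrogenase NDI1 (-0.63) and QCR9 of the cytochrome bc1 complex (-0.63). The call of QCR9 was lost without H2AZ_4KR replicate 3 or WT_H2AZ replicate 1, and that of NDI1 with the gene length offset. None of 14 ATP synthase genes and none of 67 mitochondrial ribosomal protein genes was called. With TMM factors the ATP synthase genes all lay above 0 (median 0.31, or 0.17 under total counts), while the mitochondrial ribosomal genes had a median of 0.09 that turned to -0.06 under scaling by total counts. In the TCA cycle the 3 genes called of 16 (18.8%, all lower) were the peroxisomal citrate synthase CIT2 (-0.96), the minor citrate synthase CIT3 (-0.73) and the cytosolic malate dehydrogenase MDH2 (-0.69). CIT2 was at 91.1, 93.8 and 190 CPM in H2AZ_4KR against 269, 286 and 251 CPM in WT_H2AZ, with H2AZ_4KR replicate 3 nearer to WT_H2AZ than the others. Without H2AZ_4KR replicate 2 its call was lost. JEN1, the lactate and pyruvate carrier (-1.73), and YAT2, an acetyltransferase of carnitine (-1.84), were among the 25 lowest genes of at least 20 CPM.

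Ribosomal protein genes made up 94 of the 292 higher genes. Of 57 small subunit genes 39 were higher and none lower (median 0.66), and of 79 large subunit genes 55 were higher and none lower (median 0.64), against 4.78% higher among all genes. Small subunit genes took 6.31%, 6.06% and 5.92% of the fragments in H2AZ_4KR and 3.86%, 4.29% and 4.62% in WT_H2AZ. Large subunit genes took 7.87%, 7.57% and 7.54% in H2AZ_4KR and 5.18%, 5.26% and 5.86% in WT_H2AZ. The shares were even among the H2AZ_4KR libraries and spread more widely in WT_H2AZ. RPS9A rose most among the small subunit genes, at 140, 137 and 127 CPM in H2AZ_4KR against 59.1, 75.0 and 62.4 CPM in WT_H2AZ (1.18, adjusted p = 0.000108). RPS12, a small subunit gene without a paralog, was at 1765, 2303 and 2373 CPM in H2AZ_4KR against 1035, 1278 and 1385 CPM in WT_H2AZ (0.94). RPL38 of the large subunit was at 809, 1058 and 966 CPM in H2AZ_4KR against 411, 625 and 518 CPM in WT_H2AZ (1.01). The fold of each gene was modest: under scaling by total counts 44 of the 136 genes were called higher in place of 94, with medians of 0.51 and 0.50 for the subunits, and 40 of the 94 kept their call under all 13 alternatives that keep the thresholds. Some genes stayed uncalled, such as RPS22B (0.04) and RPP0 (0.46). Whether the size of the change differed between genes was not tested. Many of these genes have near-identical paralogs, and fragments shared by a pair were dropped. Genes with an intron were higher in 56 of 86 cases and genes without one in 38 of 50.

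**Figure D3:**
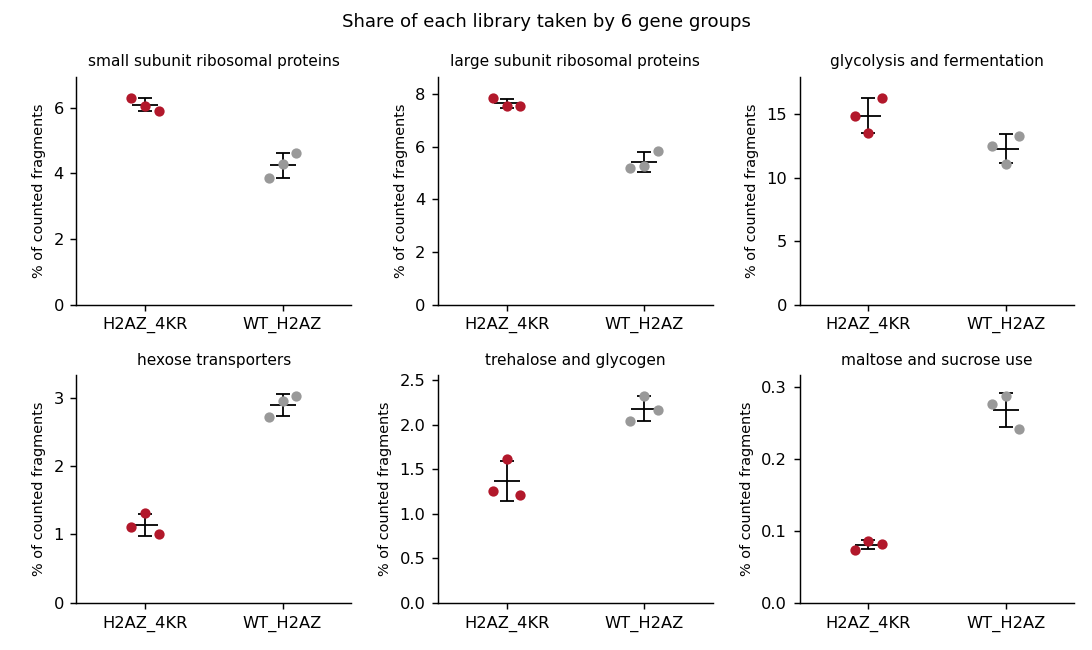
Share of all counted fragments taken by 6 gene groups in each library (points) with the mean and SD of 3 libraries (black); each panel's y axis starts at 0 and has its own scale. The 3 H2AZ_4KR libraries lie above those of WT_H2AZ for both ribosomal subunits and for glycolysis and fermentation, and below them for hexose transporters, trehalose and glycogen, and maltose and sucrose use.

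Other parts of the translation machinery moved less. Of 12 elongation and termination factors, TEF2 (elongation factor 1 alpha, 0.67), EFB1 (0.74) and CAM1 (0.63), subunits of its exchange factor, were higher, and HEF3, a minor copy of elongation factor 3, was lower (-0.68). That made 25% higher and 8.33% lower, against 4.78% and 7.32% of all genes tested. EFB1 alone of the 3 kept its call under all 13 alternatives that keep the thresholds, and it shares its locus with a snoRNA. TEF2 and CAM1 lost their calls under total counts and without H2AZ_4KR replicate 2 or WT_H2AZ replicate 2, each of which left a count of 1, and TEF2 also without H2AZ_4KR replicate 3 or WT_H2AZ replicate 1. HEF3 lost its call without H2AZ_4KR replicate 1, H2AZ_4KR replicate 2, WT_H2AZ replicate 2 or WT_H2AZ replicate 3. SUI1, which helps choose the start codon, was the 1 gene higher of 25 initiation factors (0.86), and the count was 2 without H2AZ_4KR replicate 3 and 4 without WT_H2AZ replicate 3. With TMM factors all 25 initiation factors lay above 0 (median 0.32), and so did 21 of 22 cytosolic aminoacyl-tRNA synthetases (median 0.37), none of which was called. HTS1, the histidyl-tRNA synthetase, came nearest at 340, 314 and 301 CPM in H2AZ_4KR against 231, 233 and 238 CPM in WT_H2AZ (0.58, adjusted p = 0.00319). RNA polymerase I genes gave no call among 16, and RNA polymerase III genes gave 1 of 21, RPC53 (0.64), with none under total counts or without WT_H2AZ replicate 2, 2 without H2AZ_4KR replicate 2 and 3 without WT_H2AZ replicate 1. Of 65 small nucleolar RNAs, which guide rRNA modification and are sampled poorly where libraries select long RNA, 8 were higher (12.3%) and 1 lower (median 0.31). The count higher was 5 under total counts or the gene length offset, 4 without H2AZ_4KR replicate 3, 5 without WT_H2AZ replicate 1 or WT_H2AZ replicate 2, and 3 without WT_H2AZ replicate 3. The essential snR30 was at 51.1, 43.0 and 56.7 CPM in H2AZ_4KR against 31.7, 25.1 and 33.2 CPM in WT_H2AZ (0.88).

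The leucine branch of amino acid synthesis was lower in the strain that expresses LEU2. Of 12 branched-chain genes, 4 were lower (33.3%, against 7.32% of all genes tested) and none higher (median -0.30). All 4 kept their calls under each alternative that keeps the thresholds. LEU1, isopropylmalate isomerase, which acts just before the LEU2 enzyme, was at 160, 150 and 144 CPM in H2AZ_4KR against 486, 417 and 499 CPM in WT_H2AZ (-1.49, adjusted p = 6.76e-05). The mitochondrial branched-chain transaminase BAT1 was at 258, 217 and 236 CPM in H2AZ_4KR against 501, 517 and 598 CPM in WT_H2AZ (-1.05). OAC1, which exports isopropylmalate from mitochondria, was at 30.9, 24.1 and 29.6 CPM in H2AZ_4KR against 62.2, 66.4 and 65.7 CPM in WT_H2AZ (-1.06). The groups were tight and apart for each of these. LEU4, the first enzyme of the branch, was lower too (-0.86), though YNL103W-A overlaps it. Steps shared with isoleucine and valine changed less: ILV3 (-0.40), ILV5 (-0.45) and ILV2 (-0.19) were not called, nor were the regulator LEU3 (-0.06) and the cytosolic transaminase BAT2 (0.48). BAP2, a permease for leucine, was at 508, 483 and 562 CPM in H2AZ_4KR against 1040, 1101 and 1223 CPM in WT_H2AZ (-0.98, adjusted p = 0.000922). Of 16 promoters with the Leu3 element CCGGNNCCGG on either strand (0.278% of all 5746 promoters), 3 belonged to lower genes, the trio shown above, and 1 to LEU2. The element was added to the motif list after these genes had been seen.

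Arginine synthesis also held lower genes. Of 10, 4 were lower (40%) and none higher, and all lay below 0 (median -0.45). CPA1, of the arginine-specific carbamoyl phosphate synthetase, had a log2 fold change of -0.87, and ARG4, argininosuccinate lyase, of -0.78. CPA1 was at 116, 104 and 155 CPM in H2AZ_4KR against 248, 240 and 269 CPM in WT_H2AZ. H2AZ_4KR replicate 3 was the highest mutant library for all 4 called genes, and ARG1 (-0.75) lost its call without H2AZ_4KR replicate 1, H2AZ_4KR replicate 2 or WT_H2AZ replicate 3. No gene was called among 6 for histidine, 9 for lysine and 13 for aromatic amino acids. Of 21 amino acid permeases 4 were lower (19%, against 7.32% of all genes tested), among them the general permease GAP1 (-1.11). The count was 2 under the gene length offset and without H2AZ_4KR replicate 1, H2AZ_4KR replicate 2, WT_H2AZ replicate 2 or WT_H2AZ replicate 3. In sulfur metabolism the methylenetetrahydrofolate reductase MET13 was lower (-0.80), while SAM4 (0.65) and MET14 (0.63) were higher but had no call under scaling by total counts. SAM4 also had none without H2AZ_4KR replicate 1 or WT_H2AZ replicate 1, and MET14 none without H2AZ_4KR replicate 2, H2AZ_4KR replicate 3 or WT_H2AZ replicate 3. The list's median of 0.02 turned negative there and without WT_H2AZ replicate 3. BIO2, biotin synthase, was lower with tight groups, at 34.8, 38.2 and 38.1 CPM in H2AZ_4KR against 132, 130 and 117 CPM in WT_H2AZ (-1.63, adjusted p = 1.10e-05).

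**Figure D4:**
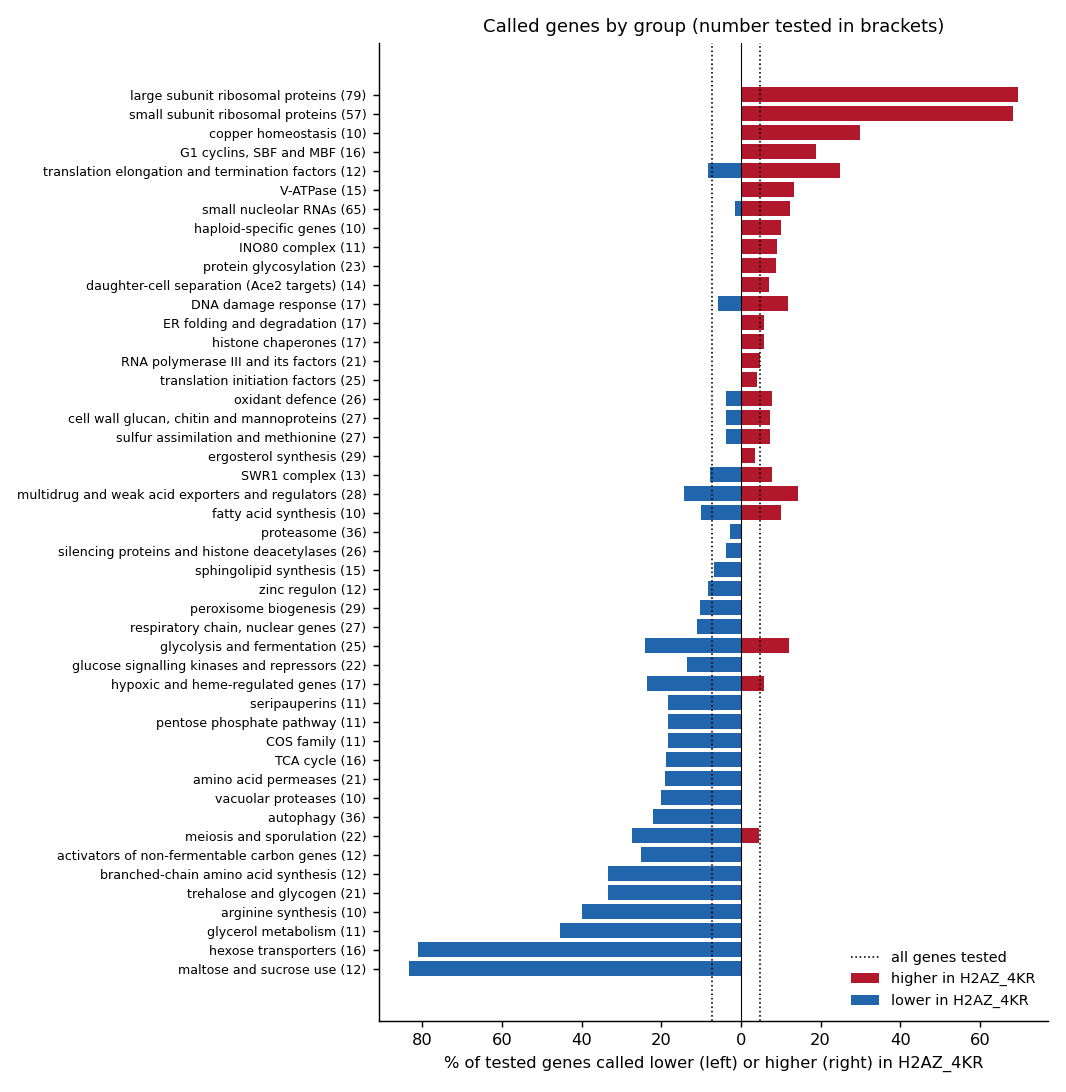
Percent of tested genes called higher (red, to the right) or lower (blue, to the left) in H2AZ_4KR for the 47 gene groups with at least 10 genes tested and at least 1 call; dotted lines mark the 4.78% higher and 7.32% lower among all genes tested. Ribosomal proteins stand at the top, and glycerol genes, hexose transporters and maltose and sucrose use at the bottom.

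Lipid and cell wall genes changed one by one. OLE1, the sole fatty acid desaturase of yeast, was at 1517, 1438 and 2021 CPM in H2AZ_4KR against 4035, 3361 and 3722 CPM in WT_H2AZ (-1.02, adjusted p = 0.00336). It was the 1 lower gene of 10 for fatty acid synthesis (2 under total counts), where the elongase ELO3 was higher (0.63, with no call under total counts, without H2AZ_4KR replicate 1 or without WT_H2AZ replicate 2). FAT3, involved in fatty acid uptake, was at 26.3, 38.2 and 43.0 CPM in H2AZ_4KR against 181, 187 and 109 CPM in WT_H2AZ (-2.00). Of 29 ergosterol genes 1 was called, ERG4 (0.59), and none of 17 inositol and phospholipid genes. ERG4 was called neither under total counts nor without H2AZ_4KR replicate 1, H2AZ_4KR replicate 3, WT_H2AZ replicate 1 or WT_H2AZ replicate 2, while the ergosterol list had 2 higher genes under the gene length offset or without WT_H2AZ replicate 3. DAN1 and DAN4, adjacent genes for cell wall mannoproteins of anaerobic cells, changed in opposite directions. DAN1 was at 35.1, 69.4 and 213 CPM in H2AZ_4KR against 17, 28.3 and 10.8 CPM in WT_H2AZ, the highest log2 fold change after LEU2 among genes of at least 20 CPM (2.65 ± 0.559) and a widely spread one. DAN4 was at 16.1, 19.2 and 16.0 CPM in H2AZ_4KR against 60.5, 40.7 and 38.7 CPM in WT_H2AZ (-1.31). Of 17 genes on the list of hypoxic and heme-regulated genes, 1 was higher and 4 were lower (23.5%, against 7.32% of all genes tested). The list gave 2 higher and 2 lower without H2AZ_4KR replicate 2 or WT_H2AZ replicate 2, and 2 higher under the gene length offset. NCE103, carbonic anhydrase, was lower at 35.1, 56.7 and 43.5 CPM in H2AZ_4KR against 195, 158 and 97.1 CPM in WT_H2AZ (-1.59). Protein mannosyltransferase PMT2 was higher (0.83) at 772, 727 and 677 CPM in H2AZ_4KR against 430, 448 and 471 CPM in WT_H2AZ. DSE4, a glucanase that separates daughter cells, was also higher (0.93), the 1 call among 14 genes of daughter-cell separation.

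Metal uptake, exporters and stress enzymes followed. Of 10 copper genes 3 were higher (30%, against 4.78% of all genes tested) and none lower (median 0.50). These were the reductases FRE7 (1.04) and FRE1 (1.02) and the copper pump CCC2 (0.59), whose call was lost under total counts and without H2AZ_4KR replicate 2 or WT_H2AZ replicate 3. FRE1 was at 794, 595 and 570 CPM in H2AZ_4KR against 411, 346 and 307 CPM in WT_H2AZ. Among genes outside the lists, FIT2, a cell wall mannoprotein that holds iron siderophores, was at 1170, 795 and 1269 CPM in H2AZ_4KR against 565, 378 and 422 CPM in WT_H2AZ (1.38). The siderophore carrier ARN1 was higher by a like amount (1.33). PDR12, the export pump for weak organic acids, was at 136, 78.9 and 125 CPM in H2AZ_4KR against 47.0, 46.9 and 50.6 CPM in WT_H2AZ (1.37), and the polyamine exporter TPO1 was higher too, at 76.5, 52.2 and 60.3 CPM in H2AZ_4KR against 30.1, 31.6 and 28.9 CPM in WT_H2AZ. The exporter list was mixed, with 4 of 28 higher and 4 lower (14.3% each, against 4.78% and 7.32% of all genes tested). The pump PDR15 was lower, at 75.6, 91.3 and 78.8 CPM in H2AZ_4KR against 174, 213 and 199 CPM in WT_H2AZ (-1.11), as was QDR1 (-0.89). HSP30, a membrane protein induced by weak acids and heat, was higher, at 263, 255 and 342 CPM in H2AZ_4KR against 119, 139 and 98.3 CPM in WT_H2AZ (adjusted p = 0.000235). In oxidant defence the cytosolic catalase CTT1 was lower (-0.98), and the glutathione peroxidase GPX2 was higher (1.19) except without WT_H2AZ replicate 3. YHB1, the nitric oxide dioxygenase, was at 971, 731 and 754 CPM in H2AZ_4KR against 437, 431 and 541 CPM in WT_H2AZ (0.94). PHO89, a sodium-phosphate cotransporter, had the lowest log2 fold change among genes of at least 20 CPM, at 8.11, 12.5 and 18.3 CPM in H2AZ_4KR against 91.0, 135 and 43.4 CPM in WT_H2AZ (-2.64 ± 0.364).

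Autophagy genes were lower where they were called, while 2 subunits of the vacuolar proton pump were higher. Of 36 ATG genes 8 were lower (22.2%, against 7.32% of all genes tested) and none higher (median -0.36). Among the lower genes were receptors of selective autophagy, namely ATG34 for vacuolar hydrolases (-1.81, with YOL083C-A overlapping it), ATG39 (-1.13) and ATG40 (-0.85) for the endoplasmic reticulum and nuclear envelope, and ATG36 for peroxisomes (-0.73). ATG39 was at 14.1, 17.9 and 10.2 CPM in H2AZ_4KR against 34.1, 35.7 and 32.3 CPM in WT_H2AZ. In the core machinery the lipid transfer protein ATG2 was lower (-0.72, adjusted p = 0.00256), as was the membrane protein ATG9 (-0.59), whose call was lost under DESeq2, RLE factors, limma-voom and the gene length offset and without H2AZ_4KR replicate 3 or WT_H2AZ replicate 1, while ATG8 (-0.27) and ATG1 (-0.42) were not called. Of 10 vacuolar protease genes 2 were lower (20%, against 7.32% of all genes tested). The vacuolar aminopeptidase APE1 was one of them (-0.77), and proteinase B, PRB1, sat at the threshold (-0.59), with no call under DESeq2, RLE factors or the gene length offset, nor without H2AZ_4KR replicate 1, H2AZ_4KR replicate 3, WT_H2AZ replicate 2 or WT_H2AZ replicate 3. Of 15 genes of the V-ATPase, the pump that acidifies the vacuole, VMA9 (0.91, overlapping YCL007C) and VMA10 (0.60) were higher and none lower (median 0.37). That made 13.3% higher, against 4.78% of all genes tested. VMA10 was not called under total counts or the gene length offset, nor without H2AZ_4KR replicate 2, H2AZ_4KR replicate 3 or WT_H2AZ replicate 1, and without H2AZ_4KR replicate 1 the list had 4 higher genes. RPN4, the activator of proteasome genes, was the 1 lower gene of 36 on the proteasome list (-0.67, with no call under the gene length offset or without WT_H2AZ replicate 1), whose median was 0.09 and -0.05 under total counts.

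A few genes of the G1 to S step were higher. Of 16 genes on the list of G1 cyclins and the factors SBF and MBF, CLN2 (1.11), PCL1 (0.94) and CLN1 (0.75) were higher, none was lower and 13 were not called (median 0.26). That made 18.8% higher, against 4.78% of all genes tested. The list's summed level was 1074, 899 and 912 CPM in H2AZ_4KR against 951, 943 and 832 CPM in WT_H2AZ, with groups that overlapped. CLN1 was not called without H2AZ_4KR replicate 1. CLN2, a G1 cyclin, was at 151, 95.5 and 123 CPM in H2AZ_4KR against 68.0, 61.2 and 59.9 CPM in WT_H2AZ. RNR1, the large subunit of ribonucleotide reductase, was at 288, 179 and 296 CPM in H2AZ_4KR against 138, 125 and 123 CPM in WT_H2AZ (adjusted p = 0.00201), and the cohesin subunit MCD1 was higher too (0.94). H2AZ_4KR replicate 2 was the lowest mutant library for CLN2, RNR1 and MCD1, and was still above WT_H2AZ in each. No gene was called among 15 for replication origin licensing and 16 of the G2/M cluster. HO, the endonuclease of mating-type switching and another SBF target, was at 24.4, 15.0 and 23.8 CPM in H2AZ_4KR against 11.5, 12.3 and 11 CPM in WT_H2AZ (1.01). The endonuclease HO is mutated in laboratory strains, so its RNA is read here as a level alone. FUS1, a pheromone-induced fusion gene, was lower at 18.2, 22.3 and 16.8 CPM in H2AZ_4KR against 62.3, 79.1 and 41.5 CPM in WT_H2AZ (-1.52).

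Meiotic genes, which are repressed in haploid cells, were low in both strains. Of 22, 6 were lower in H2AZ_4KR (27.3%, against 7.32% of all genes tested), 1 was higher and 15 were not called (median -0.39). In the least abundant of 5 equal level classes of all genes, 13.3% were lower. The neighbours SPS1 and SPS2 went opposite ways: SPS1, a kinase of spore wall formation, was at 4.89, 3.36 and 6.09 CPM in H2AZ_4KR against 2.35, 1.79 and 1.08 CPM in WT_H2AZ (1.60), and SPS2 was at 1.40, 1.74 and 1.49 CPM in H2AZ_4KR against 6.59, 8.81 and 6.85 CPM in WT_H2AZ (-2.12). SMK1, a sporulation kinase (-1.35), and DMC1, a meiotic recombinase (-1.25), were lower.

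Chromatin genes other than HTZ1 were called singly, against 4.78% higher and 7.32% lower among all genes tested. At these shares, lists of 8 to 26 genes would hold few calls or none. In the SWR1 complex, which installs H2A.Z, 1 of 13 genes was higher and 1 lower (7.69% each). The catalytic subunit SWR1 was at 151, 167 and 130 CPM in H2AZ_4KR against 115, 115 and 97.8 CPM in WT_H2AZ (0.59), and ARP6 was at 30.7, 29.4 and 33.5 CPM in H2AZ_4KR against 53.0, 53.4 and 49.6 CPM in WT_H2AZ (-0.60). Both sit at the fold limit. The call of SWR1 was lost under total counts and without H2AZ_4KR replicate 1, H2AZ_4KR replicate 2 or WT_H2AZ replicate 3, and that of ARP6 was lost with RLE factors, with the gene length offset and without H2AZ_4KR replicate 2 or WT_H2AZ replicate 1. None of 8 NuA4 genes and none of 19 SAGA genes was called. IES6 of the INO80 complex (0.73) and the chaperone ASF1 (0.72) were called, with groups that overlapped. IES6 kept its call without H2AZ_4KR replicate 1 but with no other library left out, and had none under total counts or limma-voom. ASF1 kept its call without H2AZ_4KR replicate 1 or WT_H2AZ replicate 2 but with no other left out, and had none under total counts. YKU80, which binds DNA ends, was the 1 lower gene of 26 silencing and deacetylase genes (-0.64, no call under the gene length offset or without H2AZ_4KR replicate 3), with 2 under total counts. Lists of RNA polymerase II, Mediator, the spliceosome, the nuclear pore and mRNA decay had no call in 12, 25, 36, 28 and 25 genes tested. Among all genes tested 12.1% were called, and the lists of 36 and 28 genes are longer than the range given above.

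Lower genes were more frequent near chromosome ends. Within 10 kb of an end 25 of 94 tested genes were lower (26.6%), from 10 to 20 kb 37 of 116 (31.9%), and from 20 to 30 kb 32 of 142 (22.5%), against 260 of 4622 (5.63%) beyond 100 kb. Higher genes were no more frequent there, at 2.13%, 2.59% and 2.82% in the same classes against 4.67% beyond 100 kb. The median log2 fold change was -0.34, -0.37 and -0.16 in these classes and 0.00 beyond 100 kb. Under scaling by total counts the medians shifted together, to -0.48, -0.51 and -0.30 near the ends and -0.14 beyond 100 kb. Of the tested genes within 30 kb, 35 were hexose transporter, maltose and sucrose, COS or seripauperin genes, of which 16 were lower, and of the other 317 genes 78 (24.6%) were lower. The COS and seripauperin families located there differed in their medians. Of 11 COS genes, which encode subtelomeric membrane proteins, COS10 (-1.71) and COS12 (-0.75) were lower (18.2%, against 7.32% of all genes tested). The COS median was 0.11 (-0.04 under total counts), with COS8 at 0.45 and COS6 at 0.13. Of 24 seripauperin genes 11 could be tested and 2 were lower (18.2%), PAU13 and PAU23, or 4 under scaling by total counts. The seripauperin median was -0.61, and 2 of the 11 had a log2 fold change above 0. The call of COS12 was lost without H2AZ_4KR replicate 3, WT_H2AZ replicate 2 or WT_H2AZ replicate 3, and that of PAU23 without H2AZ_4KR replicate 2, H2AZ_4KR replicate 3, WT_H2AZ replicate 1 or WT_H2AZ replicate 2. Copies in these families resemble each other closely, and fragments shared between copies were dropped. The seripauperins were sparse, at 47.7 CPM summed in H2AZ_4KR and 61.4 CPM in WT_H2AZ. The COS genes, all 11 of them tested, summed to 643 CPM in H2AZ_4KR and 684 CPM in WT_H2AZ. By chromosome, the share of lower genes was highest on IX (12.5%), I (12.2%) and VI (12.2%) and lowest on XII (5.16%).

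**Figure D5:**
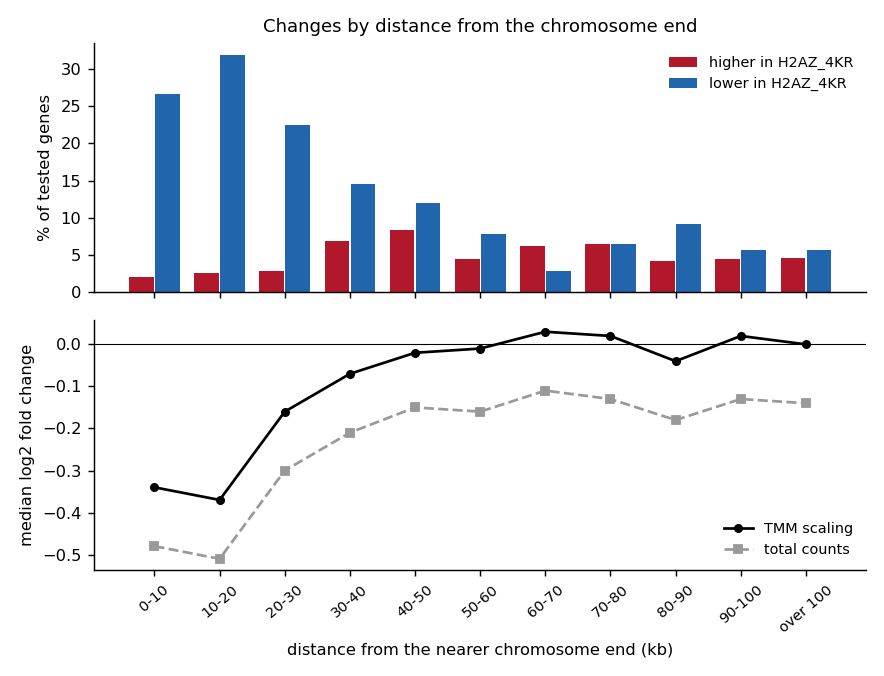
Top, percent of tested genes called higher (red, left bar) or lower (blue, right bar) in H2AZ_4KR by distance from the nearer chromosome end, in 10 kb classes with all genes beyond 100 kb together; bottom, median log2 fold change in the same classes with TMM factors (black) and total counts (grey). The share of lower genes is 26.6%, 31.9% and 22.5% in the first 3 classes and 5.63% beyond 100 kb.

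The share of higher genes fell with gene length (total exon length), and calls in both directions differed by level. In 5 equal classes from the shortest to the longest genes, 9.90%, 5.98%, 3.41%, 2.55% and 2.05% were higher. The shortest class, of 71 to 534 bases, also holds noncoding genes such as small nucleolar RNAs. The lower shares in these classes were 5.65%, 7.29%, 7.79%, 10.2% and 5.67%, with no steady trend. Without ribosomal protein genes the higher shares declined as well, at 5.21%, 3.82%, 3.09%, 2.55% and 2.05%. The gene length offset, which removes such a trend from each library, gave 302 higher and 420 lower genes, with 249 and 392 of the original calls among them. By level, 11.9% of the most abundant of 5 equal classes were higher and 5.98% lower. In the least abundant class 13.3% were lower and 4.75% higher. The part of length and level in the other results was not tested.

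Motif matches in the 500 bases before the start codon were counted on both strands for 5746 tested genes. The GC box GTGGGG, as printed for SUC2, HXT2 and HXT4 above, lay in 85 of 435 promoters of lower genes (19.5%) and 13 of 268 of higher genes (4.85%), against 8.53% of all promoters. Beyond sugar genes, its holders among lower genes included PHO89, BIO2, ALD6, OAC1, UBP11 and AQY3. The stress element AGGGG, bound by Msn2 and Msn4, lay in 49.4% of lower and 25% of higher promoters, against 34.4% of all. Both motifs share the run GGGG, but neither contains the other. The SBF element CGCGAAA lay in 13.1% of higher promoters and 4.14% of lower ones, against 5.97% of all, and in 16.0% of higher genes that do not encode ribosomal proteins. The MBF element ACGCGT lay in 8.21% of higher and 2.53% of lower promoters, against 5.52% of all. Seen from the motif, 17.3% of genes with the GC box were lower, against 6.66% of genes without it, and 10.2% of genes with the SBF element were higher, against 4.31% without it. Elements for Aft1, Gcn4, Ste12, the Hap complex, Pho4 and Cbf1 differed less: genes with and without the Aft1 element TGCACC were higher in 5.44% and 4.56% of cases. A match is a run of letters and not evidence of binding.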

How the data were processed

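The authors deposited raw counts, not normalized, of read pairs for each gene. Per the file headers, pairs over exons were counted by featureCounts 2.0.1, ignoring strand and leaving out pairs that mapped to several places. Alignment with Bowtie 0.12.2 to sacCer3 is per the submitters' processing notes. Values of overlapping genes and near-identical copies are therefore uncertain. Of 7127 gene IDs, 6047 matched an R64 locus tag, 6038 at the same position. The 6 libraries were fitted by the quasi-likelihood F test of edgeR 4.0.16 (R 4.3.3) after filterByExpr (minimum count 10) and TMM scaling, and p-values were adjusted over all 6106 genes tested. The common biological coefficient of variation was 13.9%. CPM use total counts, while fold changes use TMM factors. Libraries held 17253140 fragments or more, and a count of 0 was given a floor of 3 fragments, which covers counting error only. Scripts were tested on simulated data.

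Members and gene lists were chosen with earlier results of these data known, so no list was tested and no p-value is given for a list. The 70 lists are described by counts and medians. COS111 and spliceosomal snR genes, which share only a name stem with their lists, were left out of them after their values were seen. Genes were named by rule: HTZ1 and the marker genes, 5 neighbours on each side of HTZ1 and LEU2, the 25 highest and 25 lowest called genes of at least 20 CPM whose groups did not overlap, the 10 called genes in each direction with the largest difference in CPM, and up to 4 called genes in each direction from each list. Others, including most uncalled genes given for contrast, were chosen after their values were seen. Some genes that the rule names are not reported here. Alternatives were DESeq2 1.42.0, limma-voom (limma 3.58.1), RLE factors, total counts, no low-count filter, a replicate block, glmTreat, other fold limits, a gene length offset (loess, span 0.5), 20 kb distance classes and leaving out each library.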

Additional observations from a re-analysis of the deposited data

How the results depend on the processing

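The 292 higher and 447 lower genes became 322 and 445 with DESeq2, 311 and 436 with RLE factors, 296 and 450 without the low-count filter, 270 and 452 with limma-voom, and 302 and 420 with the gene length offset. Scaling by total counts gave 138 higher and 671 lower, which follows from its lower median of all genes. Testing against 1.5-fold with glmTreat gave 14 and 99, no fold limit gave 642 and 758, and a fold over 2 gave 49 and 190. Leaving out each library in turn gave 245 to 309 higher and 362 to 444 lower genes, and 2.01 to 2.23 was the range of the HTZ1 log2 fold change over all alternatives. Of 739 called genes 372 kept their call under all 13 alternatives that keep the thresholds, as did 113 of the 174 called genes named by rule, and none of these changed direction. With the replicate number as a block the counts were 310 and 466. Deviations of same-numbered libraries correlated at 0.164, 0.21 and -0.105, so the numbers were not taken to pair samples, and not every library correlated best with its own number. Depth limits low genes: 256 called genes averaged under 20 CPM. In the outer 30 kb of the chromosomes 26.7% of tested genes were lower, and 21% to 34.4% under the other settings, against 5.63% and 4.65% to 9.02% beyond 100 kb. In 20 kb classes the first class had a median log2 fold change of -0.36.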
